A study of Mus musculus with 30 samples.

Results

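Bone-forming cells are steered by hormones and vitamins as well as by bone morphogenetic proteins, and the transcript levels of 9 hormone and vitamin receptors were followed here through muscle and bone differentiation of a mouse myoblast line. The 9 genes were the vitamin D receptor Vdr, the parathyroid hormone receptor Pth1r, the retinoid X receptor Rxra, the retinoic acid receptors Rara, Rarb and Rarg, the thyroid hormone receptor Thra, the glucocorticoid receptor Nr3c1 and the estrogen receptor Esr1. Each gene was read from the probe sets that carried its symbol and no other, and the probe set with the brightest mean over all arrays stood for the gene. The 9 genes had 22 such probe sets of 45101 on the array, and they were 9 of the 18194 genes represented in this way.

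The cells were C2C12, a line of mouse myoblasts that fuses into myotubes when growth factors are withdrawn and turns toward the osteoblast lineage when BMP2 (bone morphogenetic protein 2) is added. A pair of stable lines had been made by lentiviral transduction, C2C12-pMirn378 with a construct that overexpresses the precursor of the microRNA miR-378, and C2C12-pMirn0 with the parent vector. This assignment follows the line names and the study's methods, since the deposited design text lists the constructs in the reverse order. Both lines also carried the green fluorescent reporter copGFP and were sorted pools of reporter-positive cells, so neither was a single clone, and no group lacked the vector. The arrays measured messenger RNA and not the mature microRNA, so the overexpression itself was not checked here. RNA was taken from undifferentiated cells at day 0 (d0), and at days 3 and 6 (d3, d6) of culture without BMP2 (untreated, the myogenic condition) or with 300 ng/ml BMP2 (the osteogenic condition). The 2 lines, 3 days and 2 treatments gave 10 groups of 3 arrays, 30 arrays in all, each on total RNA hybridised to a mouse whole-genome expression array.

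Values are intensities on a linear scale, normalized by the study before deposit, and folds and log2 ratios were computed within a probe set only, since the brightness of different probe sets cannot be set side by side. The median of all values was an intensity of 76.5, and array medians ran from 68.0 to 82.7. Probe sets whose mean lay at or above that median had a median within-group SD of 0.14 on the log2 scale, against 0.85 for dimmer ones, so weak signals were much less precise. A gene was called different where the adjusted p was under 0.005 and the log2 ratio was beyond 0.6 in either direction. Beside the receptors, 7 of 7 skeletal muscle markers were measured, and their summed intensity rose from between 19866 and 22542 at d0 to between 67114 and 89422 in untreated cells and was between 7717 and 13519 with BMP2. Of 6 osteoblast markers, 4 had a probe set with a single symbol, and their sum was between 174 and 269 without BMP2, between 2735 and 3595 with BMP2 in C2C12-pMirn0 cells, and between 6020 and 7705 with BMP2 in C2C12-pMirn378 cells. A sum weighs its brightest probe sets most and does not show that all of its genes moved. Among these 4, Ibsp was dim and called in no comparison. Sums of adipocyte markers stayed between 9.72 and 54.7 and those of endothelial markers between 21.6 and 84.1, and no gene of either list had a mean at or above the median of all values. The sum of 4 chondrocyte markers was between 1190 and 1623 at d0, between 439 and 582 untreated, between 937 and 1295 with BMP2 in C2C12-pMirn0 cells and between 1030 and 1688 with BMP2 in C2C12-pMirn378 cells. Of these, Sox9 was bright and Col2a1, dim without BMP2, was called higher with BMP2 in all 4 comparisons (log2 5.15 to 6.49). The largest called ratio of Sox9 over all comparisons was -1.69, and Acan and Col10a1, both dim, were called in none. Sums of 3 blood and macrophage markers lay between 104 and 247, with Csf1r the bright one, and no gene of that list was called between BMP2 and untreated cells.

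All of these receptors but Pth1r belong to the nuclear receptor family, proteins that bind a small lipid-soluble ligand inside the cell and switch genes on or off directly at their response elements. The retinoid X receptor is the common partner with which the vitamin D, retinoic acid and thyroid hormone receptors pair on DNA, whereas glucocorticoid and estrogen receptors act as pairs of their own kind. Pth1r is instead a receptor of the cell surface that signals through G proteins and cyclic AMP, it binds parathyroid hormone and its related peptide, and it is abundant on osteoblasts. Vitamin D and parathyroid hormone together control calcium balance and bone turnover, and the vitamin D receptor is itself a known marker of the osteoblast lineage.

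To show the start regions behind these transcripts, windows of 300 bases (250 before to 50 from each annotated start) were taken from RefSeq on the mouse build GRCm38.p6. The table held 7 of the 9 genes, and Thra and Nr3c1 were not matched. Both strands of each window were searched for 4 short motifs, overlapping matches counted. The GC box (GGGCGG), a site of the Sp family of factors, was present in 35.7% of the 32851 windows of this length, the core of the RUNX site (TGTGGT) in 16.8%, the TATA box (TATAAA) in 13.6%, and a direct repeat of the retinoid type, 2 copies of GTTCA on the same strand with 6 bases between them, in 0.0761%, which was 25 windows. The windows of Vdr, Pth1r and Rarg are printed because these genes rose with BMP2 in both lines, each 5′ to 3′ on the strand of the gene in lower case with GC boxes of either strand in capitals. Where a gene has several starts the one with the most matches is given, which was the third of 3 for Pth1r and the first of 2 for Rarg. All 3 genes lie on the minus strand, Vdr at chr15:97908247-97908546, Pth1r at chr9:110742561-110742860 and Rarg at chr15:102257473-102257772.
Vdr: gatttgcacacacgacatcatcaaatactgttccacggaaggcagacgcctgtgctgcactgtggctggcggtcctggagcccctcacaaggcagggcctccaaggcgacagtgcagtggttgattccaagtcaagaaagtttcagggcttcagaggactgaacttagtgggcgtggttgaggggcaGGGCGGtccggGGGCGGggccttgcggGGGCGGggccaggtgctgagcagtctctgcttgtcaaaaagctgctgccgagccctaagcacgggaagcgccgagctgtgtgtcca
Pth1r: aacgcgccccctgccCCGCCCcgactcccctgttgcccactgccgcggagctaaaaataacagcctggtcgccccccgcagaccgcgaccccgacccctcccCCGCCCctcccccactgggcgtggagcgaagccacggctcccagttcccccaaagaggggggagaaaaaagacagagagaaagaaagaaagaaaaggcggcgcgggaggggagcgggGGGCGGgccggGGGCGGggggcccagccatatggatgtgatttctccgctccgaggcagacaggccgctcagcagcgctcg
Rarg: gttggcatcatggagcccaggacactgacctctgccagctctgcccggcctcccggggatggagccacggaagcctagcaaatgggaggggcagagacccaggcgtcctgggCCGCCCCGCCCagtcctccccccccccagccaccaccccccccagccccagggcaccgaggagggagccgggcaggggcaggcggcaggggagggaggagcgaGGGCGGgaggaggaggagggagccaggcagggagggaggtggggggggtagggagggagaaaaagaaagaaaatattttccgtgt
Vdr had 3 GC boxes between 63 and 31 bases before its start, Pth1r had 4 and Rarg had 3, of which a pair overlapped. GC boxes were not particular to these genes. The first start of Rxra and the first and second starts of Rara, genes not called between BMP2 and untreated cells, had 4 each. These Rara windows overlap and hold the same boxes. The bases G and C made up 61.3% of the Vdr window, 69.3% of that of Pth1r and 70.0% of that of Rarg. The printed windows held no RUNX core, although the third of 4 starts of Rara and the second start of Rarg each had one match. No window of the 7 genes contained TATAAA. A match describes the letters only and is not a binding site measured in these cells.

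The window of Rarb at chr14:16575427-16575726, also on the minus strand, was among the 25 windows with the retinoid direct repeat, shown here in capitals. This repeat was the motif chosen to be marked in Rarb, so its match is a description and not the outcome of an open search. Rarb is a textbook target of retinoic acid, the ligand of its own product.
Rarb: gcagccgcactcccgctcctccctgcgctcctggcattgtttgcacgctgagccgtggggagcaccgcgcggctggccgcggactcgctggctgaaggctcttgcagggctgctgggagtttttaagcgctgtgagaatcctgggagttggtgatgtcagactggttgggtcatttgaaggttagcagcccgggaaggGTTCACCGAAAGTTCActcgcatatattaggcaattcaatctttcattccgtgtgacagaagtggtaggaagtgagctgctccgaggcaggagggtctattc
The repeat ran from 52 to 37 bases before the start, and the window was 57.7% G and C. None of the other member windows held it. Only this spelling and spacing was searched, so retinoid elements of another form would have been missed.

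Adding BMP2 raised 4 of the 9 receptors, Vdr, Pth1r, Rarg and Thra, at both days and in both lines. Nr3c1 passed the test too, but only at d3 in C2C12-pMirn378 cells, and none of the 9 was called lower with BMP2. In C2C12-pMirn0 cells 4 members were called at d3, where 19.5% of all genes were called, and 4 at d6, where 21.5% were. In C2C12-pMirn378 cells 5 members were called at d3, where 23% of all genes were called, and 4 at d6, where 21.7% were. All members but Rarb had a mean at or above the median of all values. The shares over all genes, here and below, include dim genes, and no share among bright genes was taken. The median log2 ratio of the members was 0.40 at d3 and 0.34 at d6 in C2C12-pMirn0 cells, and 0.66 and 0.72 in C2C12-pMirn378 cells. Over all genes tested the corresponding medians were 0.05, 0.08, -0.03 and -0.03. The summed muscle, osteoblast and chondrocyte markers given above moved with the same contrast, and their part in these differences was not tested. In a fit to the groups of each comparison alone, which has fewer arrays to estimate the spread, the calls of Pth1r and Nr3c1 at d3 in C2C12-pMirn378 cells (adjusted p = 0.0086 and 0.00616) and those of Rarg in all but d3 of C2C12-pMirn0 cells (adjusted p from 0.0073 to 0.0177) were lost. In bulk RNA, fewer cells of a kind and less RNA per cell cannot be told apart.

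Vdr, which turns calcitriol into a transcriptional signal, gave the most precise large difference of the 4. In C2C12-pMirn0 cells at d3 its intensity was 334, 324 and 342 without BMP2 and 2293, 2034 and 2185 with it. At d6 the untreated arrays read 293, 232 and 252, and those with BMP2 read 1168, 1239 and 1332. Every BMP2 array lay far above every untreated array at both days. The ratio was 6.51-fold at d3 (log2 2.70 ± 0.12 SE, adjusted p = 2.5e-14) and 4.83-fold at d6 (log2 2.27 ± 0.12, adjusted p = 4.84e-13). In C2C12-pMirn378 cells the d3 arrays read 286, 249 and 242 without BMP2 and 3906, 3370 and 3427 with it. At d6 they read 312, 291 and 278 without BMP2 and 2088, 1893 and 1980 with it. Again the groups did not overlap, with ratios of 13.8-fold at d3 (log2 3.78 ± 0.12, adjusted p = 5.2e-17) and 6.77-fold at d6 (log2 2.76 ± 0.12, adjusted p = 1.49e-14).

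**Figure D1:**
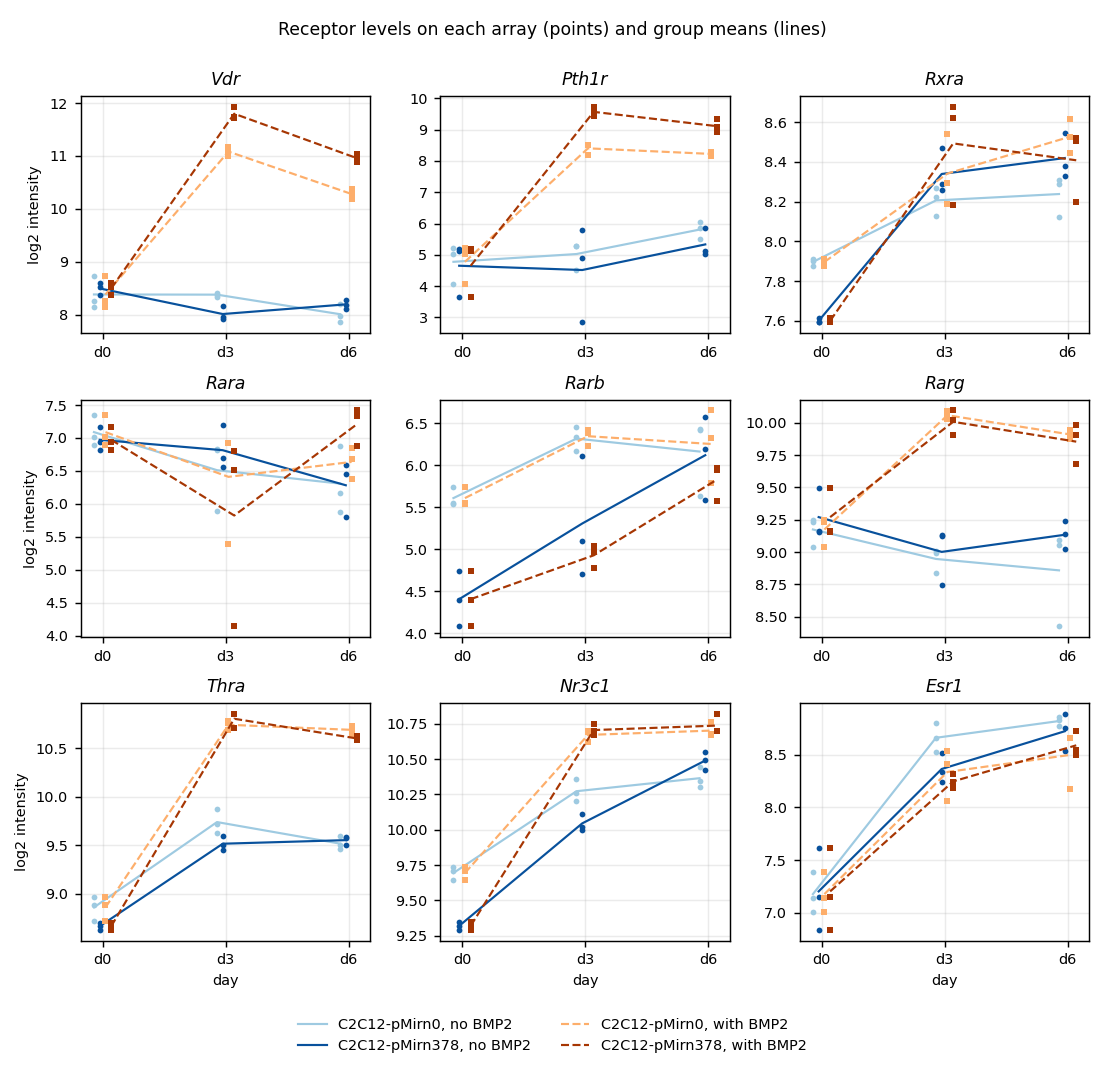
Log2 intensity (vertical axis, its range set per gene) of the representative probe set of each of the 9 receptors by day. Points are single arrays, 3 to a group, lines join the group means of a line and treatment, and the d0 arrays of a line are drawn in both of its courses. Vdr and Pth1r stand far above all other groups in the 4 BMP2 groups, Thra and Rarg are higher there too, and Esr1 is lowest at d0.

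Pth1r started from weak signal. All arrays without BMP2, d0 included, were under the median of all values, and the lowest read 7.15. With BMP2, C2C12-pMirn0 cells read 368, 366 and 289 at d3 and 303, 310 and 285 at d6. C2C12-pMirn378 cells read 687, 749 and 854 at d3 and 538, 491 and 644 at d6. Thus all 12 BMP2 arrays were brighter than all 18 others, and the BMP2 arrays of C2C12-pMirn378 cells were all brighter than those of C2C12-pMirn0 cells. The log2 ratio of BMP2 over untreated was 3.38 ± 0.51 SE at d3 (adjusted p = 1.13e-05) and 2.42 ± 0.51 at d6 (adjusted p = 0.000516) in C2C12-pMirn0 cells, and 5.06 ± 0.51 (adjusted p = 2.51e-08) and 3.78 ± 0.51 (adjusted p = 2.16e-06) in C2C12-pMirn378 cells. Because the untreated values were dim, these sizes depend on where the floor is set: with values under 50 raised to 50, the same ratios were 2.76, 2.38, 3.87 and 3.39, all still called.

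Rarg, a retinoic acid receptor of skeletal and skin tissue, rose with BMP2 in both lines. In C2C12-pMirn0 cells the BMP2 arrays read 1062, 1089 and 1046 at d3 and 986, 959 and 939 at d6, against untreated means of 494 ± 31.7 and 474 ± 113 (SD, n = 3). In C2C12-pMirn378 cells they read 1094, 959 and 1037 at d3 and 1010, 819 and 957 at d6, against 516 ± 74.5 and 563 ± 42.2. No BMP2 array overlapped an untreated array of its line and day. The log2 ratios were 1.11 and 1.05 in C2C12-pMirn0 cells and 1.01 and 0.72 in C2C12-pMirn378 cells (SE 0.14 each), with adjusted p from 1.35e-06 to 0.000298.

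Thra, the thyroid hormone receptor that prevails in muscle and bone, had the smallest error of the called genes but Nr3c1. Its arrays at d3 in C2C12-pMirn0 cells read 843, 940 and 789 without BMP2 and 1649, 1734 and 1753 with it, and at d6 they read 772, 704 and 725 without and 1605, 1657 and 1690 with it. The group means in C2C12-pMirn378 cells were 733 ± 35.8 without and 1788 ± 102 with BMP2 at d3, and 752 ± 24.6 and 1552 ± 21.5 at d6 (SD, n = 3). The treated and untreated arrays stood apart in every one of these pairs. The log2 ratios were 1.00 and 1.17 in C2C12-pMirn0 cells and 1.29 and 1.05 in C2C12-pMirn378 cells (SE 0.07 each), with adjusted p no higher than 1.42e-10.

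Nr3c1, the receptor through which glucocorticoids act on nearly all tissues, was also higher with BMP2 at both days, but the difference exceeded the size threshold at d3 in C2C12-pMirn378 cells only. There the arrays read 1025, 1107 and 1039 without BMP2 and 1628, 1659 and 1722 with it, a log2 ratio of 0.66 ± 0.06 SE (adjusted p = 7.43e-09). The other ratios were 0.25 to 0.40, each with an adjusted p under the threshold. When arrays were centred on the median of their bright probe sets, the ratio at d3 in C2C12-pMirn378 cells was 0.56 and the call was lost. The difference between the lines in this response was 0.26 at d3 (adjusted p = 0.107) and did not pass.

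Esr1, Rxra, Rara and Rarb passed the test in none of the 4 BMP2 comparisons. Esr1 had negative values throughout, log2 -0.32 at d3 (adjusted p = 0.171) and -0.32 at d6 (adjusted p = 0.158) in C2C12-pMirn0 cells, and -0.12 and -0.13 in C2C12-pMirn378 cells, with an SE of 0.17. Rxra ranged from -0.01 to 0.29. Rara, whose SE was 0.50, cannot be read closely: its C2C12-pMirn378 arrays with BMP2 at d3 were 91.5, 112 and 17.7, a spread wider than any of its group differences. The interval of its BMP2 difference in that group ran from -2.03 to 0.05 on the log2 scale. Rarb gave 0.03 and 0.09 in C2C12-pMirn0 cells and -0.38 and -0.29 in C2C12-pMirn378 cells (SE 0.30).

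**Figure D2:**
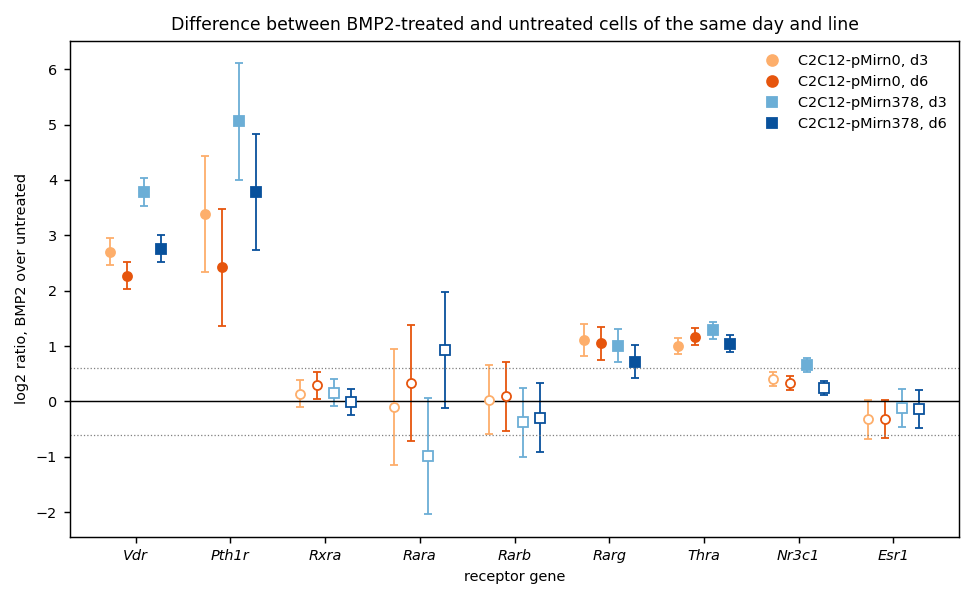
Log2 ratio of BMP2 over untreated cells for each receptor, by day and line, with 95% intervals as error bars. Filled points pass both thresholds and the dotted lines mark 0.6 on either side of 0. Vdr and Pth1r reach 2.27 to 5.06, Rarg and Thra 0.72 to 1.29, and the intervals of Rara are the widest next to those of Pth1r.

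From d0 to the later days, every receptor that was called went up and none went down. In untreated C2C12-pMirn0 cells 3 members rose, Thra, Nr3c1 and Esr1, in a comparison that called 23% of all genes. With BMP2 the same line had 6, adding Vdr, Pth1r and Rarg, where 21.7% of all genes were called. Untreated C2C12-pMirn378 cells had 5, namely Rxra, Rarb, Thra, Nr3c1 and Esr1, where 23.7% of all genes were called. With BMP2 that line had 8, all but Rara, where 23.8% of all genes were called. A call here needed the adjusted p of the d6 over d0 ratio to pass and the average of the ratios at both days to exceed the size threshold. Averaged in this way, the median ratio of the members was 0.62, 0.99, 0.78 and 1.21 in the order given, against -0.04, -0.00, 0.14 and 0.08 over all genes. The comparisons of one line share their d0 arrays.

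Esr1, a receptor with roles in both muscle and bone, rose in both lines without BMP2. Its d0 arrays read 167, 129 and 141 in C2C12-pMirn0 cells and 142, 114 and 196 in C2C12-pMirn378 cells. Untreated, they read 404, 446 and 367 at d3 and 438, 463 and 453 at d6 in C2C12-pMirn0 cells, and 302, 366 and 323 at d3 and 370, 473 and 431 at d6 in C2C12-pMirn378 cells. Every differentiated array exceeded every d0 array of either line, with BMP2 as well, where the lowest read 268. The log2 ratio over d0 was 1.48 and 1.64 untreated and 1.16 and 1.32 with BMP2 in C2C12-pMirn0 cells, and 1.16, 1.52, 1.04 and 1.39 in C2C12-pMirn378 cells (SE 0.17), with adjusted p no higher than 2.19e-05. It rose in both the muscle and the bone condition, and its ratio at each day was smaller with BMP2 in both lines. The second Esr1 probe set, read below, had the same order.

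Thra rose untreated as well as with BMP2. From 474, 503 and 423 at d0 in C2C12-pMirn0 cells, it went up by 0.88 and 0.66 on the log2 scale without BMP2 and by 1.88 and 1.83 with it. In C2C12-pMirn378 cells it went from 397, 407 and 417 by 0.85 and 0.89 without and by 2.13 and 1.93 with BMP2 (SE 0.07). In each line all d0 arrays were below all untreated arrays of d3 and d6, which were below all BMP2 arrays.

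Nr3c1 followed the same order. Its d0 arrays read 852, 834 and 799 in C2C12-pMirn0 cells and 650, 627 and 640 in C2C12-pMirn378 cells. The rise over d0 was 0.58 and 0.67 untreated and 0.98 and 1.01 with BMP2 in the first line, and 0.73, 1.17, 1.39 and 1.42 in the other (SE 0.06). Leaving out the third d0 array of C2C12-pMirn0 cells brought its untreated mean ratio to 0.60, just under the size threshold.

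Rarg rose over d0 with BMP2, by 0.88 and 0.73 on the log2 scale in C2C12-pMirn0 cells and by 0.74 and 0.58 in C2C12-pMirn378 cells. In the latter line the mean of both days was 0.66 (adjusted p = 0.00204), and the call was lost without d0 replicate 1 or 3 or without replicate 1 or 3 of d6 with BMP2, at adjusted p from 0.00965 to 0.0142.

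Rxra, the shared partner, was called in 1 line by its brightest probe set, and a second bright probe set ran the other way. In C2C12-pMirn378 cells it rose from 196, 193 and 193 at d0 to means of 325 ± 26.6 and 343 ± 27.4 untreated and 365 ± 64.9 and 342 ± 41.8 with BMP2 (SD, n = 3), which was 0.74 to 0.89 on the log2 scale. C2C12-pMirn0 cells went from 239, 240 and 235 to means between 296 and 370, 0.31 to 0.63 on that scale, and were called in neither condition. Its d0 arrays were the lowest of each line and did not overlap the later ones.

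Rarb was dim, with a mean below the median of all values and group means of 21.6 to 81.6. In C2C12-pMirn378 cells the d0 mean was 21.6 ± 4.87 (SD, n = 3), and it was 1.71 higher at d6 untreated (adjusted p = 5.96e-05) and 1.42 higher at d6 with BMP2 (adjusted p = 0.00048), log2, SE 0.30. With values under 50 raised to 50, both of its calls over d0 were lost. In a fit to the groups compared alone the call over d0 was also lost for Rarb untreated (adjusted p = 0.0153), and for Rxra (adjusted p = 0.00614) and Rarg (adjusted p = 0.0135) with BMP2 in C2C12-pMirn378 cells. Vdr, which needed BMP2 to rise, was below its d0 level in the untreated groups by up to 0.48 on the log2 scale, without passing both thresholds.

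**Figure D3:**
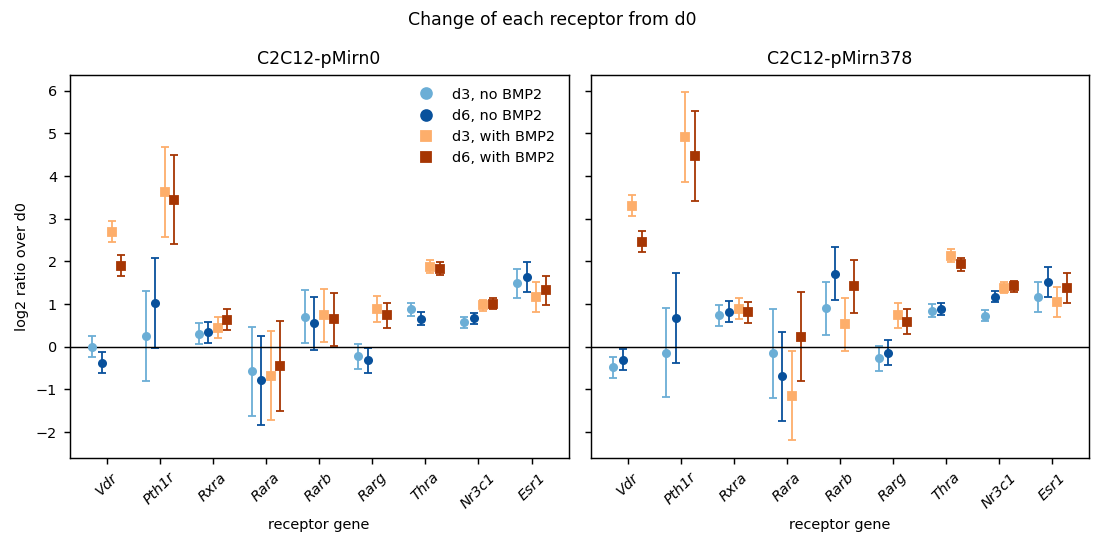
Log2 ratio over d0 of each receptor at d3 and d6, with and without BMP2, in each line, with 95% intervals as error bars. Esr1, Nr3c1 and Thra are above 0 in all 4 courses, whereas Vdr and Pth1r leave 0 clearly in the BMP2 courses alone, Vdr to between 1.90 and 3.30.

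Between d3 and d6 of BMP2, Vdr was the one receptor called. It fell by 0.80 on the log2 scale in C2C12-pMirn0 cells (adjusted p = 7.01e-05), where 3.61% of all genes were called, and by 0.84 in C2C12-pMirn378 cells (adjusted p = 1.46e-05), where 7.84% were. In both lines all 3 d6 arrays were dimmer than all 3 d3 arrays. In a fit to the groups of each comparison alone, the adjusted p were 0.0315 and 0.0195 and the calls were lost. Rara and Rarb had positive values in C2C12-pMirn378 cells, log2 1.39 (adjusted p = 0.0635) and 0.90 (adjusted p = 0.0407), which did not pass. Thra, at -0.20 in that line (adjusted p = 0.0582), did not pass either. The value of Rara was 0.55 without replicate 3 of d3 with BMP2, its array of 17.7.

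The lines were compared at the same day and treatment. Each construct was represented by a single transduced pool, so an effect of miR-378 and a difference between the pools cannot be told apart. No member was called between C2C12-pMirn378 and C2C12-pMirn0 cells at d0, where limma called 0.824% of all genes and 4 of the 9 members had an unadjusted p under 0.05. At d3 untreated none was called where 0.72% of all genes were, with 4 members under that unadjusted p, and at d6 untreated none where 0.247% of all genes were, with 0 under it. The percentages are of called genes. No share of all genes under the unadjusted p was taken, here or for the interactions below. The member counts under it therefore have no background to be set against. With BMP2 the line difference was called for 2 members at d3, Vdr higher and Rarb lower, where 4.38% of all genes were called. At d6 it was called for Vdr, higher again, where 2.85% of all genes were called. The summed osteoblast markers, Sp7 included, were higher in C2C12-pMirn378 cells in the same groups. Chondrocyte sums at d3 with BMP2 were 1485 to 1688 in C2C12-pMirn378 cells against 937 to 1295 in C2C12-pMirn0 cells, with 0 of 4 genes called between the lines. Muscle sums at d6 with BMP2 were 7717 to 8746 against 9059 to 9670, with 3 of 7 genes called lower. The part of these markers in the line differences of the receptors was not tested.

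Vdr was 1.64-fold higher in C2C12-pMirn378 cells at d3 with BMP2 (log2 0.72, 95% interval 0.47 to 0.96, adjusted p = 0.000196). The lowest array of that group read 3370 and the highest of C2C12-pMirn0 cells 2293. At d6 with BMP2 the ratio was 1.60-fold (log2 0.67, 95% interval 0.43 to 0.92, adjusted p = 0.00061), with a lowest array of 1893 against a highest of 1332. Neither pair of groups overlapped. The d6 call was lost on leaving out certain arrays. Without replicate 1 of C2C12-pMirn0 cells at d6 with BMP2 the log2 ratio was 0.63 (adjusted p = 0.00578). Without replicate 1 of C2C12-pMirn378 cells in that group it was 0.64 (adjusted p = 0.00548). Over all 6 arrays left out in turn, the ratio ran from 0.63 to 0.72 and the adjusted p from 0.00166 to 0.00578. In a fit to the groups compared alone, the adjusted p were 0.0409 at d3 and 0.0583 at d6.

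The response of Vdr to BMP2 itself differed between the lines at d3, with an interaction of 1.08 on the log2 scale (95% interval 0.73 to 1.43, adjusted p = 0.000371). It was the one member called there, where 2% of all genes were called. In a fit to the groups compared alone its adjusted p was 0.00852, over the threshold. At d6 the interaction was 0.49 (95% interval 0.14 to 0.84, adjusted p = 0.125), and no member was called where 2.02% of all genes were, with 1 member, Vdr, at an unadjusted p under 0.05. Without BMP2 at d3, Vdr was lower in C2C12-pMirn378 cells by a log2 ratio of -0.37 (adjusted p = 0.203), and its arrays of 286, 249 and 242 did not overlap those of 334, 324 and 342. The other Vdr probe set gave 0.03 for the same difference (adjusted p = 0.98), with overlapping arrays.

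Pth1r pointed the same way with a larger size and a larger error. It was 2.24-fold higher in C2C12-pMirn378 cells at d3 with BMP2 (log2 1.17, 95% interval 0.12 to 2.22, adjusted p = 0.169) and 0.89 higher on the log2 scale at d6 (95% interval -0.16 to 1.94, adjusted p = 0.381). Its interactions were 1.68 (adjusted p = 0.255) and 1.36 (adjusted p = 0.385). The d3 interaction was 0.84 without replicate 2 and 2.32 without replicate 1 of C2C12-pMirn378 cells at d3 untreated. None passed, though the arrays of the 2 lines did not overlap at either day. The error was estimated from all 10 groups together. Within-group SDs of Pth1r were 0.06 to 0.20 on the log2 scale with BMP2 and 0.28 to 1.52 without it. With values under 50 raised to 50, all 4 were called: the line differences were 1.17 (adjusted p = 6.59e-08) and 0.89 (adjusted p = 4.73e-06), and the interactions 1.11 (adjusted p = 5.2e-05) and 1.02 (adjusted p = 0.000132). No BMP2 array was under 50, so the floor left both line differences as they were and changed only the estimated spread behind them.

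Rarb was lower in C2C12-pMirn378 cells at d3 with BMP2, with arrays of 31.4, 27.4 and 32.9 against 85.9, 83.5 and 75.4 (log2 -1.42 ± 0.30 SE, adjusted p = 0.00221). All 6 arrays lay near or below the median of all values. Leaving out any one of the 6 ended the call, with adjusted p from 0.00655 to 0.0138, and so did raising values under 50 to 50 (-0.70, adjusted p = 0.0372). The difference was also negative at d0 (-1.20, adjusted p = 0.0271) and at d3 untreated (-1.01, adjusted p = 0.134), and its interaction at d3 was -0.41 (adjusted p = 0.761).

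The other 6 receptors gave no called line difference. Nr3c1 at d0 was lower in C2C12-pMirn378 cells by -0.37 on the log2 scale (95% interval -0.50 to -0.25, adjusted p = 0.000838), without overlap of arrays but short of the size threshold. Its other bright probe sets also had lower means in C2C12-pMirn378 cells at d0. The dimmest of them read 94.3 to 105 against 135 to 212 in C2C12-pMirn0 cells. By its brightest probe set Rarg had an interval of -0.35 to 0.25 at d3 with BMP2 and -0.35 to 0.24 at d6, but by the other it was 0.61 at d6 (95% interval 0.23 to 1.00, adjusted p = 0.0483), without overlap of arrays. Thra had an interval of -0.09 to 0.21 at d3 and -0.24 to 0.06 at d6 by its brightest probe set, while a second gave -0.44 at d3 (95% interval -0.85 to -0.03, adjusted p = 0.185) and the other -0.29 at d6 (95% interval -0.50 to -0.09, adjusted p = 0.0838). The interval of Esr1 by its brightest probe set ran from -0.44 to 0.26 and from -0.26 to 0.44, and those of Rara from -1.63 to 0.46 and from -0.47 to 1.62.

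**Figure D4:**
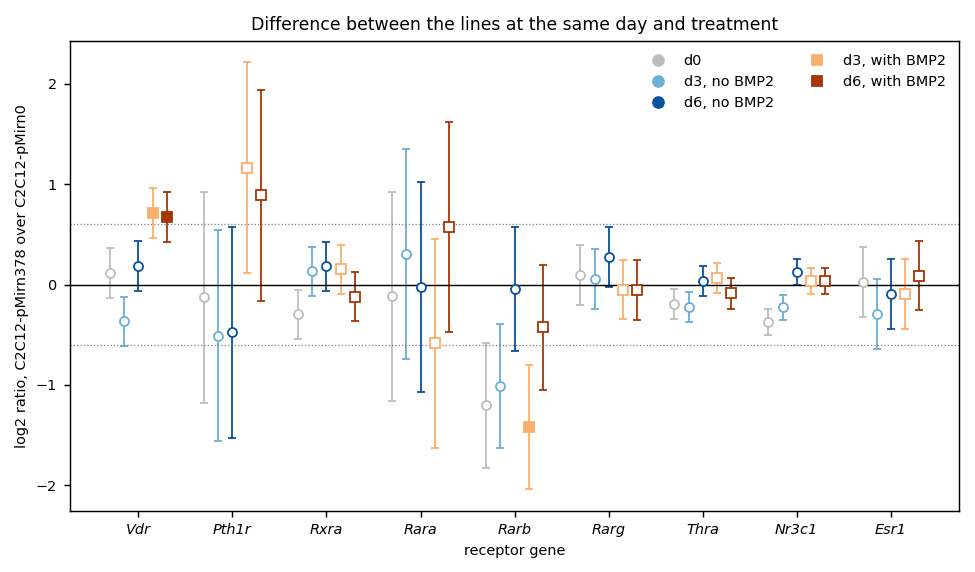
Log2 ratio of C2C12-pMirn378 over C2C12-pMirn0 cells for each receptor in the 5 conditions, with 95% intervals as error bars, filled where both thresholds are passed and with dotted lines at 0.6 on either side of 0. Vdr is filled at d3 and d6 with BMP2 and Rarb at d3 with BMP2, and Pth1r lies at 1.17 and 0.89 with intervals from 0.12 to 2.22 and from -0.16 to 1.94.

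Of the 22 probe sets, 13 did not represent their gene and allowed a second reading. The other Vdr probe set gave log2 ratios of BMP2 over untreated of 3.07, 2.27, 3.89 and 2.86, line differences of 0.86 (adjusted p = 4.23e-06) and 0.86 (adjusted p = 7.39e-06) with BMP2, and an interaction of 0.83 (adjusted p = 0.00154) at d3, so that each call of the first probe set was made by the second. It also fell between d3 and d6, by 0.96 and 0.95. The other Rarg probe set rose with BMP2 by 1.38, 1.11, 1.25 and 1.29. One of the other Thra probe sets rose by 0.85, 1.13, 0.70 and 0.87, and the remaining one gave 0.61, 0.70, 0.28 and 0.71, none called (adjusted p from 0.00691 to 0.324). The second Esr1 probe set rose over d0 by 2.26 and 2.29 untreated and 1.60 and 1.97 with BMP2 in C2C12-pMirn0 cells, and by 2.17, 2.80, 1.77 and 2.23 in C2C12-pMirn378 cells. The 3 other bright probe sets of Nr3c1 had BMP2 ratios of 0.16 to 0.83, of which 1 was called at d3 in C2C12-pMirn0 cells and 2 at d3 in C2C12-pMirn378 cells, and all their ratios over d0 were above 0. Rxra was the exception. A second bright Rxra probe set was below its d0 mean in all 8 later groups. Its log2 ratios over d0 at d3 and d6 were -0.96 (adjusted p = 0.000853, called) and -0.50 untreated and -0.46 and -0.39 with BMP2 in C2C12-pMirn0 cells. In C2C12-pMirn378 cells, where the first probe set was called higher, they were -0.60 and -0.10 untreated and -0.22 and -0.18 with BMP2, none called. When all probe sets of a gene were averaged, the untreated rise of Rxra in C2C12-pMirn378 cells was 0.43 (adjusted p = 0.0539) and that of Nr3c1 in C2C12-pMirn0 cells 0.45 (adjusted p = 0.00126), neither called. A further 4 probe sets, 1 of Rxra, 2 of Nr3c1 and 1 of Esr1, had means below the median of all values and were not read.

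**Figure D5:**
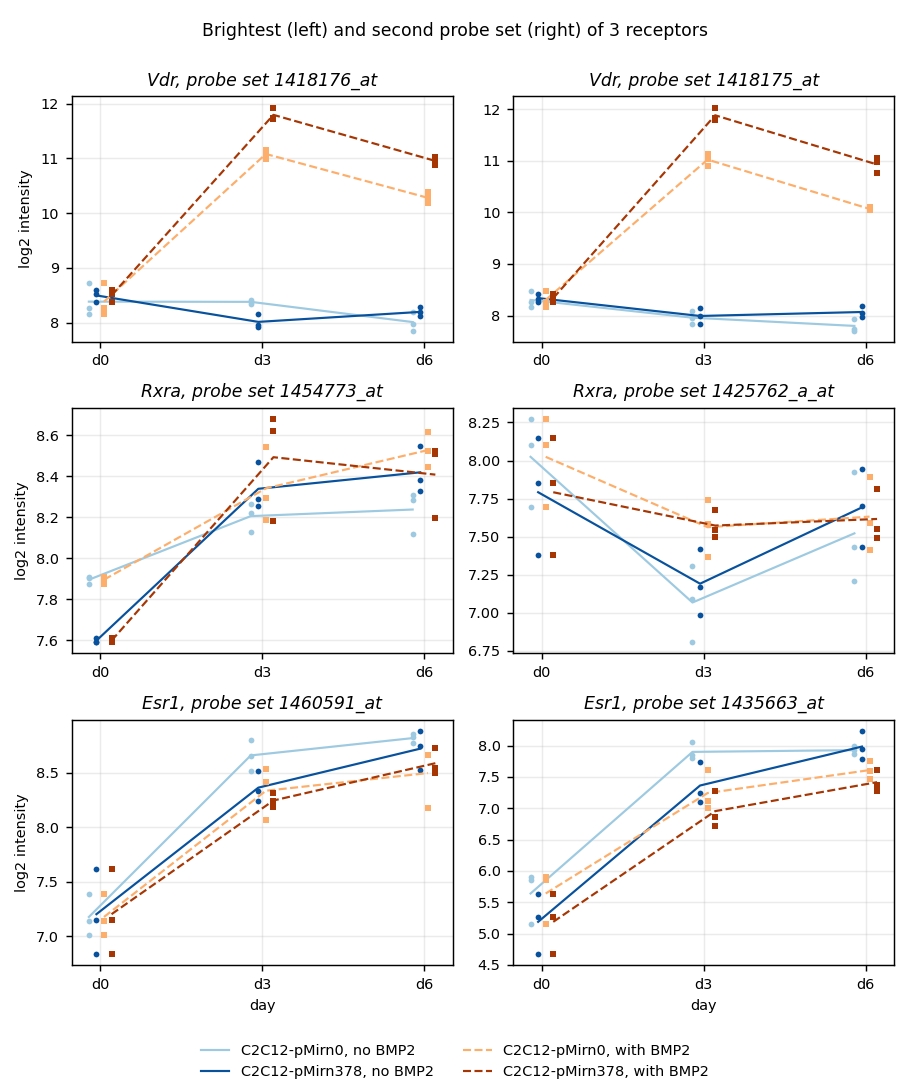
Log2 intensity by day of the brightest probe set (left) and the second (right) of Vdr, Rxra and Esr1, with points for arrays, lines through the group means, and the d0 arrays of a line drawn in both of its courses. The courses of Vdr and of Esr1 have the same shape in both columns, whereas Rxra rises from d0 on the left and is lower at d3 than at d0 on the right, by 0.96 on the log2 scale in untreated C2C12-pMirn0 cells.

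Around the receptors, the genes of each hormone pathway were counted from lists of known members. The counts stand beside the 19.5%, 21.5%, 23% and 21.7% of all genes called with BMP2 at d3 and d6 in C2C12-pMirn0 and then in C2C12-pMirn378 cells. These shares include dim genes, whereas the lists differ in how many of their genes are bright. The vitamin D list had 11 of 14 genes with a probe set of a single symbol, of which 1 had a mean at or above the median of all values. That gene was Pdia3, a membrane-associated binder of calcitriol, and it was called in no BMP2 comparison. With BMP2, 1 gene was higher at d3 in C2C12-pMirn0 cells, 0 at d6 in that line and 1 at each day in C2C12-pMirn378 cells, and 0 were lower, with list medians of 0.26, 0.21, -0.40 and -0.12. The calls were Cubn, an endocytic receptor for the vitamin D carrier, at 2.08 (adjusted p = 0.00366) in C2C12-pMirn0 cells, and S100g, the calcium-binding protein calbindin-D9k, at 2.91 (adjusted p = 0.00148) and 3.55 (adjusted p = 0.000197) in C2C12-pMirn378 cells. Both were dim, and no array of S100g exceeded an intensity of 60.4. Cyp24a1, the calcitriol-degrading enzyme that is the classic Vdr target, stayed between 3.57 and 43.5 on all arrays, and Cyp27b1, which makes calcitriol, between 15.9 and 55.4. Neither was called in any comparison.

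The parathyroid hormone list of 23 genes, with G proteins, cyclic AMP enzymes and downstream factors, had 22 measured and 20 bright. With BMP2, 7 were higher and 2 lower at d3 and 9 higher and 1 lower at d6 in C2C12-pMirn0 cells, and 6 higher and 1 lower and then 9 higher and 3 lower in C2C12-pMirn378 cells. List medians were 0.43, 0.39, 0.45 and 0.50, beside the medians near 0 over all genes given above. Pde4b, a phosphodiesterase that degrades cyclic AMP, rose by 1.88 and 1.75 in C2C12-pMirn0 cells and by 2.31 and 2.52 in C2C12-pMirn378 cells (adjusted p no higher than 8.29e-10), and was 0.92 higher in the latter line at d6 with BMP2 (adjusted p = 0.000135). Nr4a2, an orphan nuclear receptor and known early response gene of parathyroid hormone, rose by 3.25, 2.17, 3.57 and 2.37 (adjusted p no higher than 2.2e-11). Slc9a3r1, the scaffold protein that binds Pth1r, was lower with BMP2 in C2C12-pMirn0 cells (-0.91 and -1.42) and at d6 in C2C12-pMirn378 cells (-1.43), while at d3 in that line the value was -0.20 (adjusted p = 0.338).

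In the retinoid list 18 of 19 genes were measured and 9 were bright. With BMP2, 4 were higher and 1 lower, then 5 higher and 3 lower, in C2C12-pMirn0 cells at d3 and d6, and 5 higher and 2 lower at both days in C2C12-pMirn378 cells, with medians of 0.63, 0.54, 0.22 and 0.17. The genes named here moved in either direction. Aldh1a3, which makes retinoic acid, rose by 4.31 and 2.62 in C2C12-pMirn0 cells and by 4.61 and 4.52 in C2C12-pMirn378 cells, and at d6 the interaction of line and BMP2 was 1.89 (adjusted p = 0.00218). Dhrs3, which reduces retinal back to retinol, rose by 1.62, 3.21, 2.20 and 2.43. Other enzymes of the ligand went either way in their largest called ratio over all comparisons, not only those of BMP2. It was -1.41 for Rdh10, -2.29 for Cyp26b1, -4.85 for the dim Aldh1a1 and 0.94 for Rdh11. Crabp2, which carries retinoic acid to its nuclear receptors, responded differently in the lines: with BMP2 it was called lower in C2C12-pMirn378 cells (-0.87 and -2.37), with 0.19 and -0.22 in C2C12-pMirn0 cells, and the interactions were -1.06 (adjusted p = 0.000357) and -2.15 (adjusted p = 5.96e-08).

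In the thyroid hormone list 9 of 11 genes were measured and 4 were bright, and with BMP2 2 were higher and 1 lower at d3 in either line, 1 higher and 2 lower at d6 in C2C12-pMirn0 cells, and 2 higher and 1 lower at d6 in C2C12-pMirn378 cells. The list medians were 0.47, 0.09, -0.51 and -0.13. Klf9, a zinc finger factor induced by thyroid hormone and by glucocorticoids, rose by 0.89, 0.77, 1.00 and 1.21. Dio2, which activates thyroid hormone, fell by 1.61 at d6 in C2C12-pMirn0 cells and was -0.21 in C2C12-pMirn378 cells, with an interaction of 1.40 (adjusted p = 2.94e-05). Hr, a corepressor of thyroid hormone and vitamin D receptors, rose by 1.58 at d3 in C2C12-pMirn0 cells and by 1.92 and 1.15 at d3 and d6 in C2C12-pMirn378 cells.

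In the glucocorticoid list 13 of 15 genes were measured and 9 were bright, with 3 higher and 1 lower at d3 and 1 higher and 2 lower at d6 in C2C12-pMirn0 cells, and 3 higher and 0 lower and then 4 higher and 2 lower in C2C12-pMirn378 cells. Its medians lay between 0.01 and 0.19. Hsd11b1, which regenerates active glucocorticoid, fell by 2.07 and 4.03 in C2C12-pMirn0 cells and by 2.64 at d6 in C2C12-pMirn378 cells, where the d3 value was -0.48. Untreated, it was lower in C2C12-pMirn378 cells by -1.50 at d3 (adjusted p = 3.19e-07) and -1.10 at d6 (adjusted p = 3.64e-05), and its interactions were 1.59 and 1.39. Dusp1, a phosphatase induced by glucocorticoids, rose by 1.01 at d3 in C2C12-pMirn0 cells and by 1.62 and 1.10 in C2C12-pMirn378 cells, with interactions of 0.61 (adjusted p = 0.00111) and 0.82 (adjusted p = 3.86e-05). Tsc22d3, another glucocorticoid-induced gene, rose in C2C12-pMirn378 cells at d6 by 0.73 and had an interaction of 0.77 (adjusted p = 6.51e-06) at that day. Over all comparisons, the largest called ratios of Fkbp5 and Sgk1, bright genes of the same list, were -1.42 and -1.18.

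In the estrogen list 8 of 11 genes were measured, 2 were bright, and 1 was higher in each of the 4 BMP2 comparisons. It was Gper1, the membrane receptor for estrogen, at 1.80 and 0.63 in C2C12-pMirn0 cells and 2.34 and 0.88 in C2C12-pMirn378 cells. Coregulators of nuclear receptors, 14 of 16 measured and all 14 bright, had 2, 3, 1 and 4 higher and 0, 1, 0 and 1 lower, so 2, 4, 1 and 5 of 14 called, with medians of 0.16, 0.37, 0.13 and 0.28. The coactivator Ncoa3 was higher in all 4, at 0.70, 0.64, 0.65 and 0.62. Another coactivator, Ncoa1, was higher at d6, by 0.81 and 0.62, and Tbl1x, a subunit of the corepressor complex, by 0.79 and 1.23 in C2C12-pMirn0 cells and by 0.65 at d6 in C2C12-pMirn378 cells. Among 36 other nuclear receptors, 32 were measured and 16 were bright, and 5 or 6 were higher and 1 or 2 lower with BMP2. That made 7, 8, 6 and 7 of 32 called, near the shares over all genes, bright and dim together, with medians of 0.33, 0.26, 0.14 and -0.03. Rora, the retinoid-related orphan receptor, rose by 0.69, 0.71, 1.51 and 1.32. Nr4a1, a close relative of Nr4a2, fell by 0.78 at d6 in C2C12-pMirn0 cells and was higher in C2C12-pMirn378 cells at d6 with BMP2 by 1.19 (adjusted p = 3.58e-07), with an interaction of 1.28 (adjusted p = 3.74e-05).

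Finally, genes were ranked by how closely their 10 group means followed those of each receptor (Pearson r on log2 values, over 5454 bright genes whose group means spanned at least 1 log2 unit). All 10 points share the same 2 lines and culture series, and the values are given as a description. Vdr was matched most closely by Sp7 (0.994), the osteoblast transcription factor also called osterix, then by Serinc5 (0.993) and Kremen1 (0.993), a coreceptor of Wnt antagonists. Pth1r came closest to Tmed3 (0.992), Pdgfra (0.992) and Dnm1 (0.991), and Rarg to Nfatc1 (0.993), Elovl5 (0.991) and Cspg4 (0.987). Thra was followed by Prrc1 (0.993) and D430042O09Rik (0.992), Nr3c1 by Plscr4 (0.992) and Spon2 (0.990), and Esr1 by Epm2aip1 (0.987) and Riok3 (0.986). For Rara the best r was 0.909, with Tma16. Sp7 itself was higher with BMP2 by 3.36 and 2.67 in C2C12-pMirn0 cells and by 4.91 and 4.03 in C2C12-pMirn378 cells, with line differences of 1.33 (adjusted p = 6.53e-05) and 1.08 (adjusted p = 0.00106).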

How the data were processed

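Total RNA of 30 cultures was hybridised to Affymetrix GeneChip Mouse Genome 430 2.0 arrays. The authors deposited 1 linear intensity per probe set and array after RMA in R 2.4.1 (per the labels) with quantile normalization. The values do not share 1 distribution, as quantile-normalized arrays would: array medians ran from 68.0 to 82.7, the lowest value was 0.0561, and dim probe sets had a median within-group SD of 0.85 on the log2 scale. The step that left them so is not given in the sources used here. Experiments were in triplicate, and p-values measure only the spread between these samples. Arrays carry no read depth, and precision is limited by the number of arrays, 3 per group. Replicate numbers were checked as pairs: 1 of 45 group pairs had all same-number correlations of deviations over 0.1, so they were not treated as pairs.

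Here log2 of the intensities, with no offset, was fitted in limma 3.58.1 (R 4.3.3) with 10 group means on all 45101 probe sets, and 21 contrasts were tested by moderated statistics (20 residual and 1.20 prior degrees of freedom), adjusted by Benjamini-Hochberg over all probe sets. The thresholds for a call (0.005 for the adjusted p, 0.6 for the log2 ratio) followed the study's methods. Of the probe sets, 34958 had a single symbol, 932 several and 9211 none. Shares of genes called refer to 18194 genes, each read from its brightest probe set. The script was tested on simulated data. The line meant by each construct was taken from the study's methods. The members and lists were chosen with earlier results of these data known. From each list the text names up to 3 bright genes called in the most comparisons, ties by the largest called ratio. Genes named outside that rule (Pdia3, Cubn, S100g, Cyp24a1, Cyp27b1, Rdh10, Rdh11, Cyp26b1, Aldh1a1, Fkbp5, Sgk1, Col2a1) were chosen after their values were seen. Likeness was ranked for members at or above the median of all values whose group means spanned at least 1 log2 unit, which left out Rxra and Rarb. Alternatives covered replicate pairing, dim probe sets, variance estimation, scaling, a floor of 50, averaging of probe sets and leaving out each array. Figures were drawn with matplotlib 3.10.9.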

Additional observations from a re-analysis of the deposited data

Results flagged for a closer look

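The effect of BMP2 on Vdr at d3 differed between the lines, with an interaction of 1.08 on the log2 scale (limma, adjusted p = 0.000371), 13.8-fold in C2C12-pMirn378 cells against 6.51-fold in C2C12-pMirn0 cells. Leaving out each array in turn gave 1.01 to 1.15, and averaging both Vdr probe sets gave 0.95.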

How the results depend on the processing

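Of 45 called values of the receptors, all 45 kept their direction and call with the replicate block, with a filter on dim probe sets, with trended and robust variance estimation and with quantile normalization. No called value changed sign under any alternative, whereas values that were not called did so in places, for example the line difference of Rara at d3 with BMP2, which ran from -1.09 to 0.25 on leaving out 1 array. Fitting only the groups of a comparison, which leaves fewer arrays for the spread, kept 31 of the 45: the number of members called was then 0 for d6 over d3 with BMP2 in either line (1 each before), 2 for BMP2 over untreated at d3 in C2C12-pMirn378 cells (5 before), and 0 for the line differences with BMP2 at d3 (2 before) and d6 (1 before) and for the interaction at d3 (1 before). With values under 50 set to 50, 3 calls of Rarb were lost and 4 of Pth1r gained, giving 2 members for the line difference at d6 with BMP2, 2 for the interaction at d3 and 1 for that at d6 (0 before). Centring on bright probe sets lost 1 call (Nr3c1) and averaging all probe sets lost 2 (Rxra and Nr3c1). When each array was left out in turn, the line difference with BMP2 had 1 to 1 members called at d3 and 0 to 1 at d6.

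Centring on bright probe sets moved the median of all genes by -0.10 for BMP2 over untreated at d3 in C2C12-pMirn0 cells, and for d6 over d3 with BMP2 in that line it moved the share of higher genes among calls from 26.3% to 37.5%. Dim signal limited Pth1r without BMP2, Rara and Rarb: a failed call for these does not show that values did not differ. With 3 arrays a group, no array was tested as an outlier. The replicate numbers were not pairs by the correlation check, and the replicate block changed no call of the receptors.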
